A study of Mus musculus with 6 samples.

Results

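RNA of 42 genes of mitosis and of the passage from G2 into mitosis was compared between regulatory T cells (Tregs) from the bone marrow (BM) of CML and naive mice. The 42 genes were taken by exact match of their symbols, and each was found once among the 36930 features of the deposited tables. They code for CDK1, its cyclins and other partners, the factor FOXM1, mitotic kinases, the spindle checkpoint, the chromosomal passenger complex, kinetochores, chromosome structure, the spindle, and the central spindle with the machinery of cytokinesis. All mice carried Foxp3-DTR-GFP, in which the Foxp3 locus drives the diphtheria toxin receptor and GFP, and were labeled as postnatal week 8. The 3 CML mice had received syngeneic LSKs (stem and progenitor cells of the BM) that had been transduced with BCR-ABL1-GFP and injected i.v. without irradiation, and their Tregs were taken at day 15. The 3 naive mice carried no leukemia. Tregs were purified by FACS, and each mouse gave 1 library. GFP thus marked both the Tregs of these mice and the leukemic cells, and the recipients kept their own hematopoiesis.

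Cells enter mitosis when CDK1, bound to cyclin A or cyclin B, is freed from inhibitory phosphates by CDC25 phosphatases. PLK1 and the Aurora kinases then build the spindle, kinetochores tie chromosomes to microtubules, and the spindle checkpoint holds back the anaphase-promoting complex (APC/C) until all chromosomes are attached. Most of these genes are silent in resting T cells and are switched on together late in the cell cycle, which makes their mRNAs, Mki67 above all, common marks of dividing cells. Their promoters often hold a CHR element, which is read by the DREAM and MuvB complexes with B-MYB and FOXM1, and CCAAT boxes, which are bound by NF-Y.

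The promoter sequences are shown for 7 genes because CHR letters are common in the promoters of this set and because the genes behaved differently in the data. Cdk1 and Top2a were among the genes called higher in CML Tregs, Mki67 had the highest level, Kif11 and Ube2c were the most abundant spindle and APC/C genes, Cdc20 was not called, and Cdc25b was called lower. Each line gives the 150 bases before the annotated transcript start, 5′ to 3′ on the strand of the gene, from RefSeq on GRCm38.p6. Capitals mark the letters of the CHR (TTTGAA or TTCGAA) and of the CCAAT box (CCAAT), on either strand.
Cdk1: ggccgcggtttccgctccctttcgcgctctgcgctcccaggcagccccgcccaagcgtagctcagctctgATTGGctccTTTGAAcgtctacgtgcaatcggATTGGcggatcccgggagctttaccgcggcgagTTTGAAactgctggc
Mki67: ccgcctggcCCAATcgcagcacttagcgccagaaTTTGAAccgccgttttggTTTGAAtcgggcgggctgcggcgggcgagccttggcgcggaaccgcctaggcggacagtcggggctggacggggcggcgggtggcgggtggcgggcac
Top2a: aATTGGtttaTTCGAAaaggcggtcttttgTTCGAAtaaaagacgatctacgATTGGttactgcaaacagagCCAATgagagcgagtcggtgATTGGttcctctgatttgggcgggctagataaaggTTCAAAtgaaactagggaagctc
Kif11: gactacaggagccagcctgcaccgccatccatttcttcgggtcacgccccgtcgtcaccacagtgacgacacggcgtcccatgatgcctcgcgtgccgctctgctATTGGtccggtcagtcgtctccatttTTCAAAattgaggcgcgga
Ube2c: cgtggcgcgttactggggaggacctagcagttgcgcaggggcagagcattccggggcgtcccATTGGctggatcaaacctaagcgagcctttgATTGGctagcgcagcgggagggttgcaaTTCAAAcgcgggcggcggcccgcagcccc
Cdc20: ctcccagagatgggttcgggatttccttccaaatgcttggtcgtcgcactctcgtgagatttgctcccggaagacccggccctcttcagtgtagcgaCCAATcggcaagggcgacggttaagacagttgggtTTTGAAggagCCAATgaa
Cdc25b: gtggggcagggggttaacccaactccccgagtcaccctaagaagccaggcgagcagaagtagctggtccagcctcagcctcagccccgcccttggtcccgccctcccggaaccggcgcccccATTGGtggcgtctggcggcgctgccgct

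These stretches lie at chr10:69352913-69353062 on the minus strand for Cdk1, chr7:135716380-135716529 on the minus strand for Mki67, chr11:99024190-99024339 on the minus strand for Top2a, chr19:37376232-37376381 on the plus strand for Kif11, chr2:164769779-164769928 on the plus strand for Ube2c, chr4:118437344-118437493 on the minus strand for Cdc20, and chr2:131186798-131186947 on the plus strand for Cdc25b. Counted from 1 at the first base of the transcript, with negative positions before it, CHR letters begin at -15 and -71 in Cdk1, at -19 in Kif11, at -29 in Ube2c, and at -18 in Cdc20. In Mki67 they begin at -98 and -116. The Cdc25b stretch holds a CCAAT box at -28, and its CHR letters begin at 8, inside the transcript and past the end of the printed stretch.

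RefSeq windows from 250 bases before to 50 bases after the start were available for 35 of the 42 genes, with 38 windows in all. CHR letters were present in 31 of the 38 windows (81.6%), compared with 14.5% of the 11640 windows of genes tested for expression and 19.2% of all 32851 windows. CCAAT letters were present in 81.6%, compared with 37.8% and 37.4%, and 73.7% held both, compared with 5.81% and 7.52%. In a list of 82 further mitosis genes, windows were available for 66, and 62.2% of these 74 windows held CHR letters. Of 27 genes of DNA replication, which act earlier in the cell cycle, 23 had windows, and 16.7% of these 30 windows held CHR letters. Counting a match shared by overlapping windows of a gene once, the mitosis genes held 38 CHR matches, and 25 began between -40 and 50. CHR and CCAAT letters shared bases in 1 window. Birc5, Ccnb1, Cenpe, Cks2, Mad2l1, Nuf2, and Nusap1 had a window without CHR letters, so genes with and without them were both among those called higher below. No window was used for Aurkb, Ccna2, Cdc25c, Foxm1, Incenp, Kif20a, and Tpx2. These are matches of letters, which does not show that a factor binds there.

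**Figure D1:**
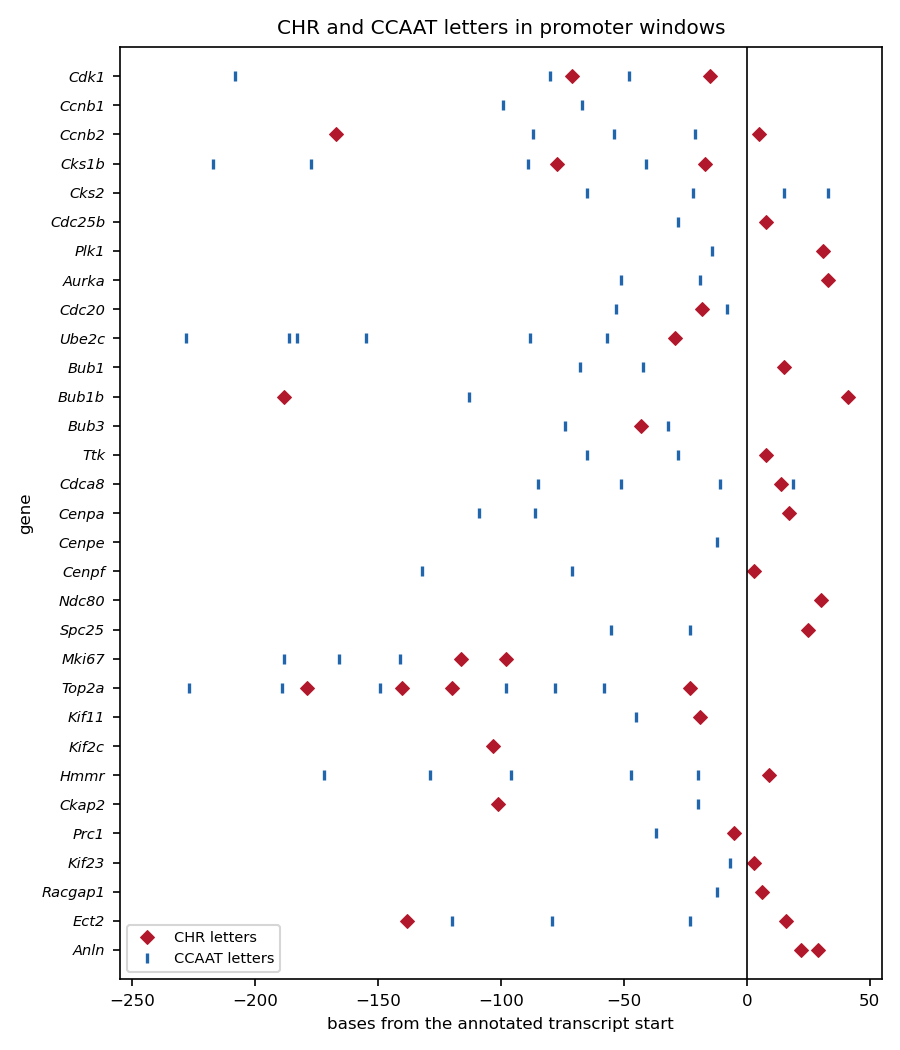
Positions of CHR letters (red diamonds) and CCAAT letters (blue ticks) in RefSeq promoter windows, in bases from the annotated transcript start, for the genes with at least 1 match and a window (the window with the lowest coordinate where a gene has several). Most CHR letters lie close to the start, and most CCAAT letters lie before it.

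The libraries differed in depth, and CML replicate 2 stood apart. The deposited values behaved as RPKM, which are reads scaled to the length of the coding sequence and to the depth of the library, and their steps gave about 7613827, 829181, and 2286190 reads for CML replicates 1, 2, and 3, compared with 5187987 to 9751911 for the naive libraries. The 42 genes held 15904, 1064, and 6515 reads in the CML libraries and 6695 to 12707 in the naive libraries. In CML replicate 2, the median gene had 7 reads, 8 of 42 genes had none, and 24 had fewer than 10. Unannotated LOC features (5 of them) took 36.1% of the summed RPKM of CML replicate 2, 4.35% and 10.1% in CML replicates 1 and 3, and 1.31% to 2.95% in naive libraries. The summed RPKM outside these features was set against its mean over all libraries. It was at 1.02, 0.805, and 1.03 times that mean in CML replicates 1, 2, and 3. In the naive libraries it was at 1.02 to 1.08 times. Results are therefore given with and without CML replicate 2. All 7 Treg markers had reads in every library (summed RPKM of 2198, 1546, and 2110 in CML Tregs, and 1531, 1653, and 1706 in naive Tregs).

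Summed over the 42 genes, the level was 743, 470, and 1013 RPKM in CML Tregs (replicates 1, 2, and 3, the order used throughout), against 492, 503, and 496 in naive Tregs. CML replicates 1 and 3 lay above all naive libraries, and CML replicate 2 lay below them. The place of CML replicate 2 depends on the scaling. With the LOC features left out or with a common 75th percentile, its sum lay above every naive library. With a common Treg marker sum it did not. The mean was 742 ± 272 RPKM for CML, against 497 ± 5.40 for naive Tregs (SD, n = 3 each), a ratio of 1.49, and the difference of the means was smaller than the SD of the CML group. The ratio was 1.77 without CML replicate 2. The naive libraries thus lay within a narrow range, and most of the spread was among CML mice.

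The same order held gene by gene. CML replicate 3 was the highest CML library for 31 of 42 genes and CML replicate 2 the lowest for 34. Such counts were not made over all genes tested. The median gene was at 1.69, 0.736, and 2.42 times its naive mean in CML replicates 1, 2, and 3, compared with 0.944, 0.703, and 0.971 for the genes tested. Relative to the median of all genes, CML replicate 2 therefore differed little in these genes. CML replicate 1 was above every naive library for 30 of 42 genes (27.1% of the genes tested) and below for 2 (31.5%). CML replicate 3 was above for 34 (33.6%) and below for 3 (33.8%). CML replicate 2 was above for 12 (18.6%) and below for 20 (55.5%). Both CML replicates 1 and 3 were above every naive library for 28 of 42 genes, compared with 13.9% of the genes tested. CML replicate 2 was within or below the naive range for 20 of these 28. Most genes tested with this pattern did the same. CML replicates 1 and 3 were above for 1942 genes tested, and CML replicate 2 was above as well for 674 of them.

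**Figure D2:**
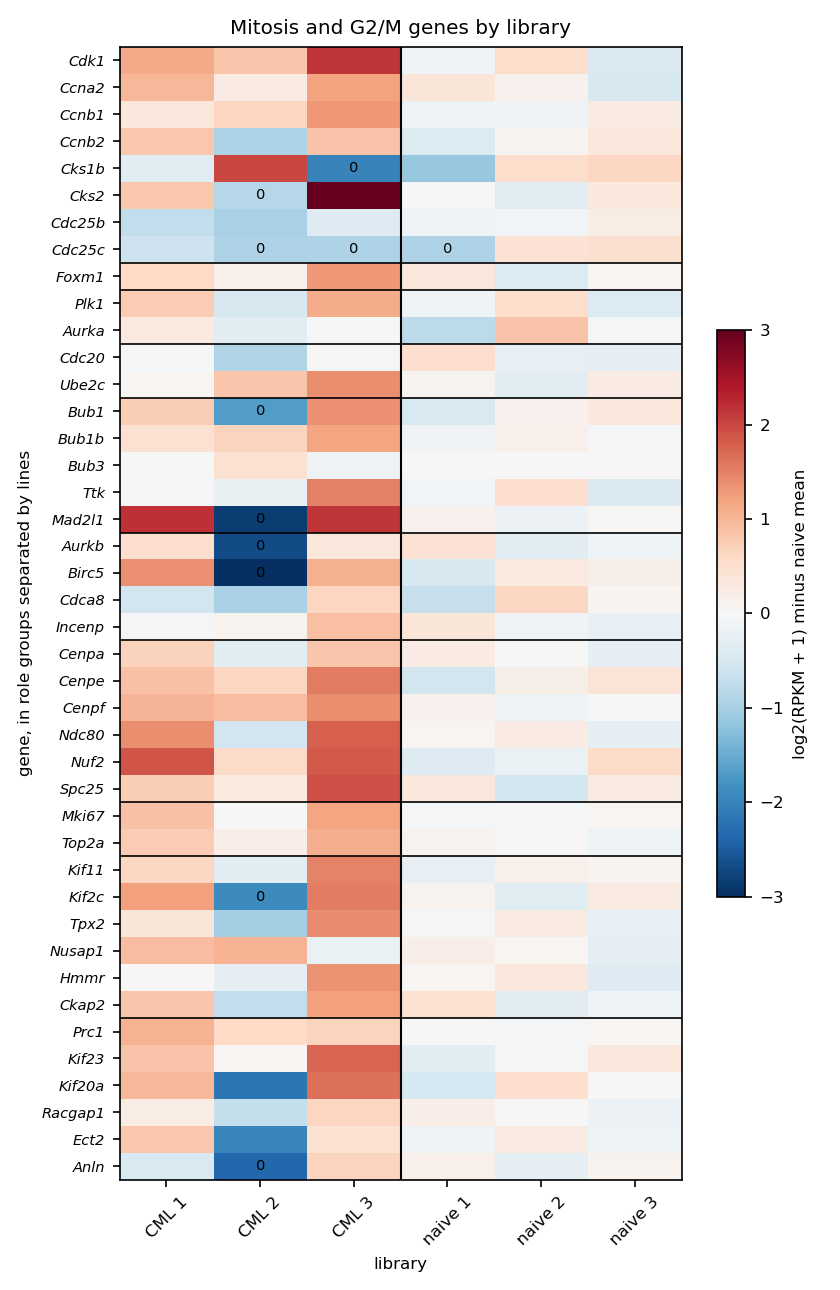
Level of each of the 42 genes in each library, as log2(RPKM + 1) minus the mean of the 3 naive libraries, with colors limited to -3 and 3, role groups separated by lines, and 0 written where a library had no reads. Columns CML 1 and CML 3 are mostly red, and CML 2 holds 8 genes at 0.

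Of the 42 genes, 41 reached a mean of 1 RPKM across all 6 libraries and were tested, and Cks2 passed only through its CML level. Tests were made with limma on log2(RPKM + 1), a scale that understates changes of low genes. The log2 fold change was above 0 for 32 genes and below 0 for 9, with a median of 0.44, compared with -0.18 for all 13923 genes tested. With Benjamini-Hochberg adjustment over all genes tested, 0 of the 41 genes passed an adjusted p of 0.05 (smallest 0.362), and 0.172% of the genes tested passed. At an unadjusted p under 0.05 and a fold of at least 1.5, 6 genes were called higher in CML Tregs (Cdk1, Nuf2, Cenpf, Cenpe, Top2a, and Prc1), compared with 2.61% of the genes tested. Cdc25b was called lower, compared with 5.94%. Every CML library exceeded every naive library for 8 genes (these 6 with Ccnb1 and Bub1b), compared with 4.84% of the genes tested, and below for Cdc25b, compared with 12.2%. In these bulk samples, more cells in mitosis and more RNA per cell cannot be told apart.

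Without CML replicate 2, 20 of 41 genes were called higher, compared with 4.86% of the genes tested, and 0 were called lower (5.61%). Cks2, which entered the test only through its CML level, is among the 20, and 19 of 40 were called higher without it. The log2 fold change was above 0 for 38 of 41 genes, with a median of 0.89 compared with -0.03 for all genes. With limma, 0 of 41 passed the adjusted p, compared with 0.115% of the genes tested. Mad2l1 came closest (log2 fold change 2.17, SE 0.26, adjusted p = 0.0687).

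**Figure D3:**
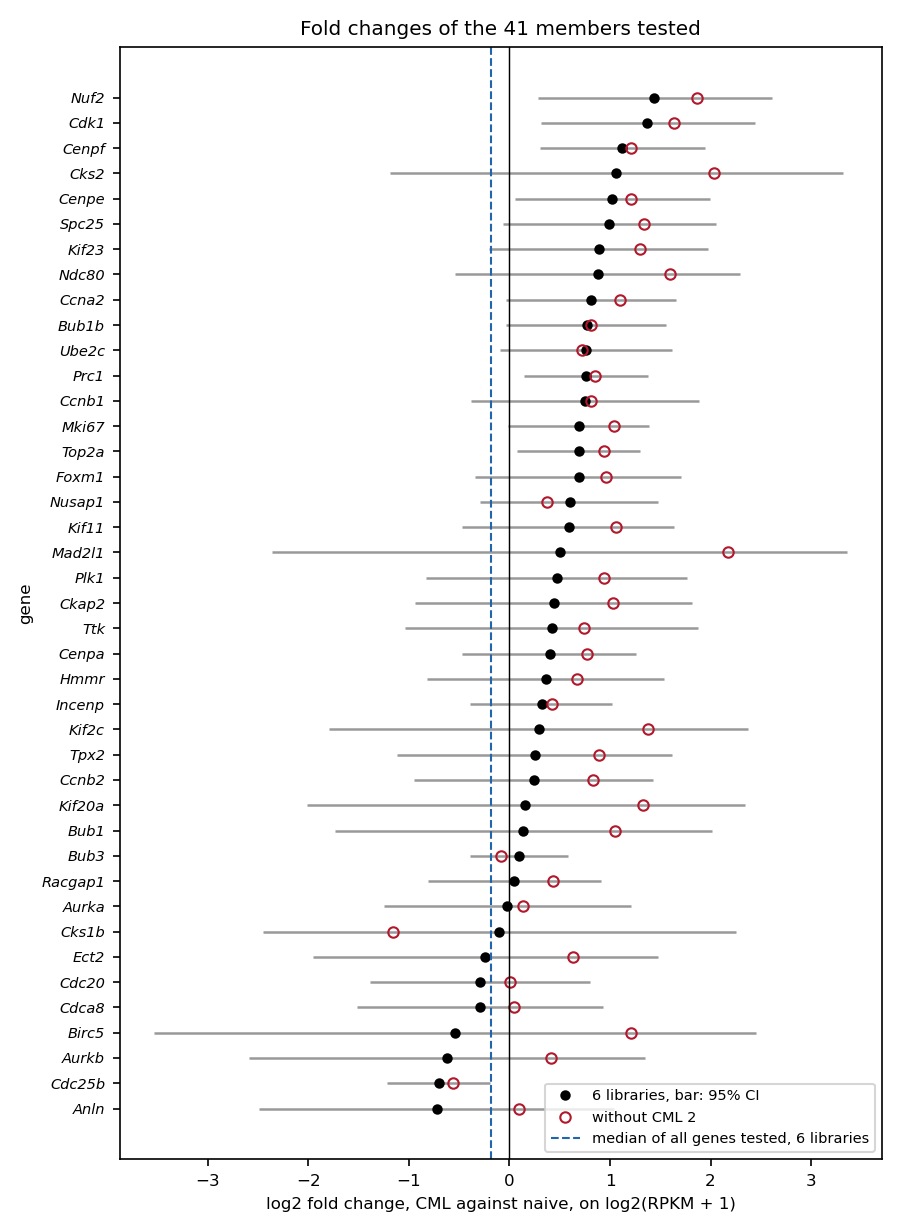
Log2 fold change (CML against naive, on log2(RPKM + 1)) of the 41 genes tested, with all 6 libraries (black points, bars for the 95% confidence interval) and without CML replicate 2 (red circles). The dashed line is the median of all genes tested, -0.18. Most red circles lie to the right of the black points.

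CDK1 is the kinase that drives entry into mitosis. Cdk1 (chr10:69335146-69352938, minus strand) had 13.5, 10.8, and 28.4 RPKM in CML Tregs, against 5.17, 8.54, and 3.90 in naive Tregs. The groups did not overlap, and CML replicate 3 was highest (log2 fold change 1.37, SE 0.46, adjusted p = 0.396). The value of CML replicate 2 rests on 8 reads (95% Poisson interval 4.66 to 21.3 RPKM), which covers the levels of naive replicates 1 and 2 but not of naive replicate 3.

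Cdc25b codes for a phosphatase that activates CDK1 and was the most abundant gene of this group. Cdc25b (chr2:131186949-131198497, plus strand) had 33.1, 27.7, and 42.1 RPKM in CML Tregs, against 50.9, 52.4, and 64.7 in naive Tregs. Every CML library was below every naive library, opposite in direction to Cdk1 (log2 fold change -0.70, SE 0.22, adjusted p = 0.362). The fold change was -0.56 without CML replicate 2, which no longer reached 1.5-fold. Cdc25c, the related phosphatase, was below the level needed for a test, with 0.240, 0, and 0 RPKM in CML Tregs, against 0, 1.56, and 1.66 in naive Tregs.

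Among the cyclins, Ccnb1 was above the naive range in all CML libraries without being called (2.20, 3.03, and 5.41 RPKM compared with 1.34, 1.41, and 2.06 RPKM), and its value in CML replicate 2 rests on 3 reads. The cyclin genes Ccna2 and Ccnb2 were not called with all libraries and were called without CML replicate 2, with log2 fold changes of 1.10 and 0.83. Cks1b and Cks2 code for small subunits that bind CDK1, have coding sequences of equal length, and are close paralogs whose reads could have been shared. Cks1b had 2.19, 15.1, and 0 RPKM in CML Tregs, against 0.803, 4.75, and 5.13 in naive Tregs (log2 fold change -0.10, SE 1.02, adjusted p = 0.980). These are 4, 3, and 0 reads compared with 1, 10, and 12, so no difference was detectable at this depth. The mean RPKM was higher in CML Tregs (5.75 against 3.56), opposite in sign to the fold change. Cks2 rests on 4, 0, and 9 reads compared with 1, 1, and 3.

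FOXM1 is the transcription factor that activates many genes of this set. Foxm1 had 8.38, 5.83, and 14.2 RPKM in CML Tregs, against 6.78, 3.66, and 5.46 in naive Tregs, and CML replicate 2 lay within the naive range (log2 fold change 0.69, SE 0.44, adjusted p = 0.644). PLK1 and Aurora A act at the centrosomes and spindle poles. Plk1 had 6.09, 2.0, and 7.97 RPKM in CML Tregs, against 2.77, 5.03, and 2.15 in naive Tregs (log2 fold change 0.47, SE 0.56, adjusted p = 0.790). Aurka had 5.11, 2.99, and 3.98 RPKM in CML Tregs, against 1.91, 8.01, and 3.82 in naive Tregs (log2 fold change -0.02, SE 0.53, adjusted p = 0.992). The groups overlapped for both kinases, and for Aurka the widest range was among naive mice.

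Ube2c and Cdc20 code for the ubiquitin-conjugating enzyme and the activator of the APC/C. Ube2c had 17.8, 31.3, and 46.2 RPKM in CML Tregs, against 18.2, 13.3, and 20.3 in naive Tregs (log2 fold change 0.76, SE 0.37, adjusted p = 0.561). CML replicate 1 was within the naive range, and the others were above it. Cdc20 had 5.25, 2.41, and 5.54 RPKM in CML Tregs, against 8.10, 4.41, and 4.24 in naive Tregs, with overlapping groups (log2 fold change -0.29, SE 0.47, adjusted p = 0.852).

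The 5 spindle checkpoint genes had a summed level of 94.6, 78.5, and 103 RPKM in CML Tregs, against 63.1, 66.2, and 64.9 in naive Tregs, without overlap, and 0 of 5 were called higher (2.61% of the genes tested). Bub3 was the most abundant and did not follow the others. It had 47.7, 66.1, and 43.2 RPKM in CML Tregs, against 47.5, 48.5, and 48.2 in naive Tregs (log2 fold change 0.10, SE 0.21, adjusted p = 0.894). It was the gene by which CML replicate 2 exceeded the naive sum of this group. Bub1b, which codes for BUBR1, a component of the checkpoint complex that inhibits the APC/C, had 9.68, 11.4, and 16.6 RPKM in CML Tregs, against 6.22, 7.61, and 6.65 in naive Tregs (log2 fold change 0.77, SE 0.34, adjusted p = 0.530).

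Mad2l1, which codes for the checkpoint protein MAD2, differed widely among CML mice and is named here after its values were seen. It had 31.7, 0, and 30.4 RPKM in CML Tregs, against 6.86, 5.35, and 6.31 in naive Tregs. CML replicates 1 and 3 were far above the naive range, and CML replicate 2 had no read. At its depth, 3 reads would be 5.85 RPKM, close to the naive mean of 6.17 RPKM, so its 0 allows a level near that of naive Tregs. Bub1, Birc5, Kif2c, and Cks2 had the same pattern of 0 in CML replicate 2 and higher values than any naive library in CML replicates 1 and 3.

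**Figure D4:**
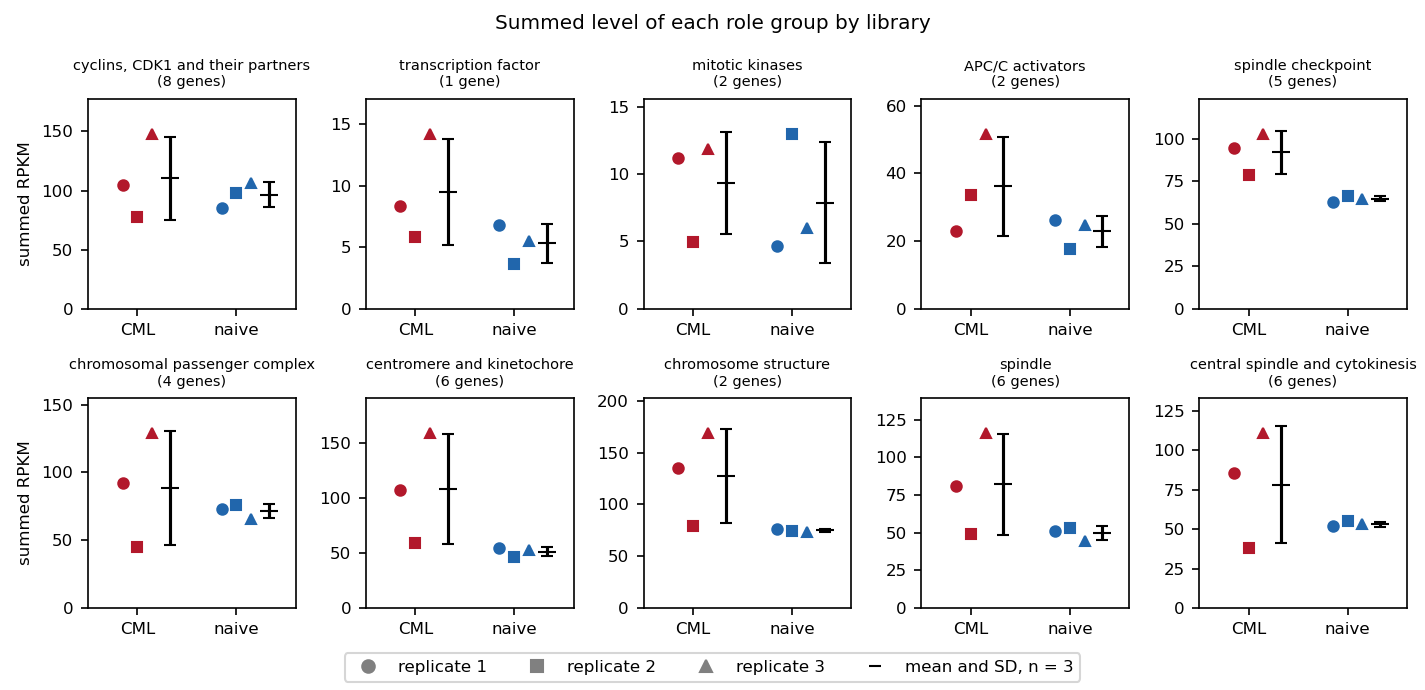
Summed RPKM of each role group in each library (red, CML; blue, naive; symbols for replicates), with the mean and SD of 3 libraries in black. CML replicate 2 (square) is the lowest CML library in 9 of 10 groups, and the centromere and kinetochore, spindle checkpoint, and chromosome structure groups do not overlap between CML and naive Tregs.

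The chromosomal passenger complex joins the kinase Aurora B to INCENP, survivin (Birc5), and borealin (Cdca8) and corrects faulty attachments of chromosomes. Its summed level was 92.0, 44.6, and 129 RPKM in CML Tregs, against 72.8, 75.7, and 65.5 in naive Tregs. Incenp, the most abundant, had 34.9, 39.1, and 69.3 RPKM in CML Tregs, against 47.3, 33.6, and 30.4 in naive Tregs (log2 fold change 0.32, SE 0.31, adjusted p = 0.737). The kinase and the other subunits had fold changes below 0 with all libraries and above 0 without CML replicate 2.

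Birc5 had 41.3, 0, and 33.5 RPKM in CML Tregs, against 10.8, 19.3, and 17.7 in naive Tregs (log2 fold change -0.54, SE 1.29, adjusted p = 0.903). The means ran the other way, at 24.9 RPKM for CML and 15.9 RPKM for naive Tregs, since the library at 0 weighs more on the log scale. The fold change was 1.21 without CML replicate 2, where Birc5 was called higher. Aurkb had 8.10, 0, and 7.16 RPKM in CML Tregs, against 7.80, 4.17, and 4.94 in naive Tregs (log2 fold change -0.62, SE 0.85, adjusted p = 0.820, and 0.41 without CML replicate 2). Cdca8 had 7.70, 5.54, and 19.1 RPKM in CML Tregs, against 6.87, 18.6, and 12.5 in naive Tregs, with overlap (log2 fold change -0.29, SE 0.53, adjusted p = 0.872).

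The 6 centromere and kinetochore genes had the largest ratio of summed levels among the 10 role groups. They summed to 107, 58.7, and 159 RPKM in CML Tregs, against 54.2, 46.4, and 53.0 in naive Tregs, a ratio of 2.12, and every CML library was above every naive library. All 6 fold changes were above 0, and 3 genes were called higher with all libraries (2.61% of the genes tested) and 6 without CML replicate 2 (4.86%).

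Nuf2 codes for a subunit of the NDC80 complex, which holds microtubules at the kinetochore. Nuf2 (chr1:169497934-169531464, minus strand) had 16.5, 6.07, and 16.0 RPKM in CML Tregs, against 2.63, 3.11, and 6.04 in naive Tregs (log2 fold change 1.44, SE 0.50, adjusted p = 0.425). CML replicate 2, with 7 reads, was barely above naive replicate 3. Spc25, another subunit and the most abundant gene of the group, had 24.4, 17.7, and 56.8 RPKM in CML Tregs, against 17.9, 9.32, and 17.0 in naive Tregs (log2 fold change 0.99, SE 0.46, adjusted p = 0.539). Spc25 was not called, and CML replicate 2 was within the naive range.

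Cenpf and Cenpe code for a large kinetochore protein of G2 and mitosis and for a kinesin that moves chromosomes to the equator. Cenpf (chr1:189640606-189688086, minus strand) had 10.2, 9.52, and 13.5 RPKM in CML Tregs, against 4.97, 4.04, and 4.53 in naive Tregs (log2 fold change 1.12, SE 0.35, adjusted p = 0.362). Cenpe (chr3:135212537-135273611, plus strand) had 11.6, 9.76, and 19.2 RPKM in CML Tregs, against 3.72, 6.73, and 7.96 in naive Tregs (log2 fold change 1.02, SE 0.42, adjusted p = 0.496). Both have long coding sequences, so that CML replicate 2 still held 71 and 60 reads, and both were above the naive range in this library too.

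Mki67 codes for the surfactant of mitotic chromosomes known as Ki-67, and Top2a for the topoisomerase that untangles sister chromatids. Mki67 (chr7:135689784-135716361, minus strand) had 83.2, 44.2, and 103 RPKM in CML Tregs, against 43.9, 43.4, and 46.7 in naive Tregs. CML replicates 1 and 3 were well above the naive range and CML replicate 2, with 350 reads, was within it (log2 fold change 0.69, SE 0.30, adjusted p = 0.525). The 95% confidence interval of the log2 fold change ran from -0.01 to 1.39. With the LOC features left out of the scaling or with a common 75th percentile, Mki67 in CML replicate 2 lay above the naive range. With a common Treg marker sum it did not. Top2a (chr11:98992943-99024189, minus strand) had 52.1, 34.7, and 65.8 RPKM in CML Tregs, against 32.7, 30.9, and 27.1 in naive Tregs (log2 fold change 0.69, SE 0.26, adjusted p = 0.470).

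Among the 6 spindle genes, 0 were called higher with all libraries (2.61% of the genes tested) and 3 without CML replicate 2 (4.86%), namely Kif11, Kif2c, and Ckap2. Kif11, the motor that pushes spindle poles apart and the most abundant of the group, had 21.1, 10.3, and 39.3 RPKM in CML Tregs, against 11.1, 15, and 14.3 in naive Tregs (log2 fold change 0.59, SE 0.46, adjusted p = 0.694). CML replicate 2 lay below the naive range and the others above. Tpx2, Nusap1, and Hmmr, which code for microtubule-binding proteins of the spindle, had log2 fold changes of 0.25, 0.60, and 0.36. Nusap1 went against the usual order, with 25.5, 27.5, and 11.1 RPKM in CML Tregs, against 14.9, 13.5, and 10.6 in naive Tregs.

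At the central spindle, PRC1 bundles microtubules between the separating chromosomes. Prc1 (chr7:80294450-80316259, plus strand) had 24.8, 18.0, and 19.1 RPKM in CML Tregs, against 11.5, 11.2, and 12.1 in naive Tregs (log2 fold change 0.76, SE 0.27, adjusted p = 0.424). Its CML libraries were closer together than for most genes of the set. Racgap1, which with Kif23 forms centralspindlin and was the most abundant of the group, had 22.0, 11.1, and 29.9 RPKM in CML Tregs, against 21.5, 18.7, and 16.4 in naive Tregs (log2 fold change 0.05, SE 0.37, adjusted p = 0.973).

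Ect2 and Anln act in the cleavage furrow, as the activator of RhoA and as the scaffold anillin. Ect2 had 9.04, 0.446, and 6.79 RPKM in CML Tregs, against 4.28, 5.82, and 4.13 in naive Tregs (log2 fold change -0.24, SE 0.74, adjusted p = 0.932, and 0.63 without CML replicate 2), and its mean RPKM was higher in CML Tregs (5.42 against 4.74). Anln had 2.72, 0, and 7.19 RPKM in CML Tregs, against 4.75, 3.28, and 4.54 in naive Tregs (log2 fold change -0.72, SE 0.76, adjusted p = 0.762, and 0.10 without CML replicate 2). For Anln, 3 reads in CML replicate 2 would be 1.07 RPKM, below its naive mean of 4.19 RPKM, and the upper 95% Poisson limit of 0 reads is 1.32 RPKM. Kif20a, a kinesin of the central spindle, and Kif23 were not called with all libraries and were called higher without CML replicate 2 (log2 fold changes of 1.33 and 1.30).

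A list of 82 further mitosis genes, written by hand and sharing no gene with the 42, had a smaller median change. All 82 were tested, 56 had a log2 fold change above 0 and 26 below, and the median was 0.16, compared with -0.18 for all genes. With limma, 0 passed the adjusted p (smallest 0.0729). At the unadjusted threshold, 6 were called higher (2.61% of the genes tested) and Smc4 was called lower (5.94%). The 3 largest increases were in Cdca5, which codes for sororin, a protector of cohesion, in Kntc1, a kinetochore gene, and in Ckap2l, a spindle gene. Cdca5 had 9.42, 3.03, and 3.30 RPKM in CML Tregs, against 1.21, 0, and 0.645 in naive Tregs (log2 fold change 1.88, SE 0.60, adjusted p = 0.362). Kntc1 and Ckap2l had log2 fold changes of 1.46 and 1.33 (adjusted p = 0.422 and 0.308), and their groups did not overlap either. The naive mean of Cdca5 was 0.619 RPKM, so it entered the test only through its CML level, like Cks2. Ska1, Fam83d, Iqgap3, and Pbk also entered only in this way and were not called.

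Smc4 codes for a core subunit of condensin, which folds mitotic chromosomes, and it went the other way. It had 204, 160, and 183 RPKM in CML Tregs, against 370, 412, and 330 in naive Tregs, with every CML library below every naive library (log2 fold change -1.02, SE 0.16, adjusted p = 0.0729). Because of its high level it weighed on the sum of the list, which was 1022, 762, and 1223 RPKM in CML Tregs, against 1063, 1053, and 950 in naive Tregs, a ratio of 0.981, and 1.26 without Smc4. Smc4 (chr3:69004738-69034623) spans the microRNA gene Mir15b (chr3:69009772-69009835), a feature of the tables that had reads in the naive libraries alone.

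Erythroid markers also had a higher summed level in CML Tregs. The summed level of 11 erythroid markers was 132, 41.8, and 252 RPKM in CML Tregs, against 29.6, 30.9, and 5.93 in naive Tregs, without overlap, and the CML libraries had the same order as in the 42 mitosis genes. Globin genes and Car2 held most of it, and Epor was at 0 in every library. The summed level of 12 neutrophil markers was 24.1, 218, and 255 RPKM in CML Tregs, against 37.2, 65.1, and 67.4 in naive Tregs, lowest in CML replicate 1, and Ly6g and Mmp8 were at 0 in every library. The summed Treg marker level was above the naive range in CML replicates 1 and 3 as well. Stem and progenitor markers summed to 23.1, 26.3, and 15.9 RPKM compared with 21.2, 16.7, and 21.3 RPKM. Dendritic cell markers summed to 225 to 238 RPKM compared with 171 to 381 RPKM, monocyte and macrophage markers to 62.4 to 127 RPKM compared with 74.6 to 95.4 RPKM, CD8 T cell markers to 51.1 to 74.2 RPKM compared with 26.2 to 58.7 RPKM, and megakaryocyte and mast cell markers to 0 to 3.80 RPKM compared with 1.54 to 6.14 RPKM. The part of other cells in the levels of the mitosis genes was not tested.

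**Figure D5:**
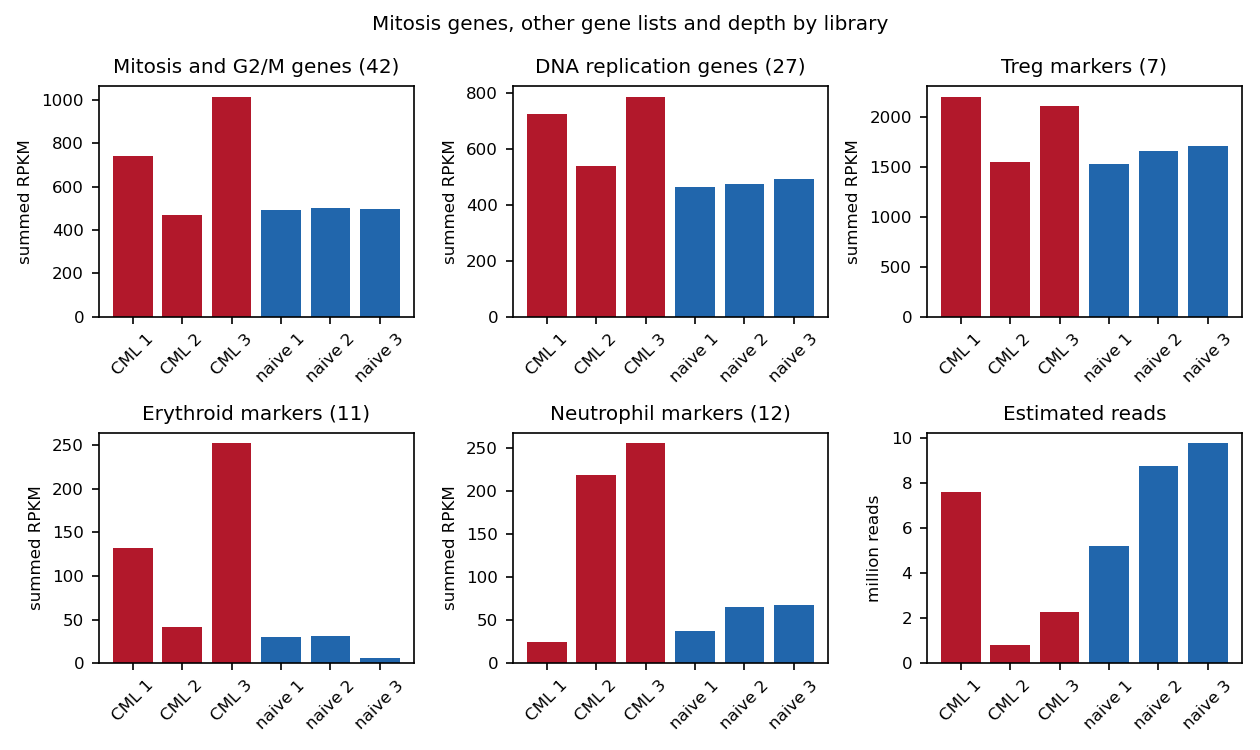
Summed RPKM of the 42 mitosis genes, 27 DNA replication genes, 7 Treg markers, 11 erythroid markers, and 12 neutrophil markers, and the estimated reads, for each library (red, CML; blue, naive). CML replicate 3 is highest in the mitosis, DNA replication, and erythroid panels, and CML replicate 2 has the fewest reads.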

How the data were processed

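RNA-Seq was made from FACS-purified BM Tregs of 3 CML and 3 naive mice. Groups and replicate numbers came from the sample labels. Libraries were prepared with the SMART-Seq v4 kit, and the authors used SeqMan NGen for assembly and ArrayStar for analysis, and their methods name DESeq2 and a 2-way ANOVA. The submitters' processing notes name GRCm38 and mm10. The annotation is not given in the sources used here. No source names the unit, and the deposited values were treated as RPKM. Per the coding length of GENCODE M21, 62.2% to 64.5% of low products of value and length lay within 0.05 of a whole number of reads, and 9.08% to 10.6% did with transcript length, where 10% is the share of the interval covered. Read numbers, Poisson intervals, and floors of 3 reads are estimates from these steps and cover counting error only. A value of 0.001 marks no reads and was set to 0.

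CML and naive Tregs were compared with limma 3.58.1 in R 4.3.3 (lmFit, eBayes with a trend, 2-sided) on log2(RPKM + 1) for the 13923 genes whose mean reached 1 RPKM. Called means an unadjusted p under 0.05 and a fold of at least 1.5. With 3 mice a group, p-values measure the spread between these mice. No count test was run. The fit was tested on simulated data. The members and gene lists were chosen with earlier results of these data known. Values and tests were printed for the most abundant gene of each role group, called genes, and genes with a fold change below 0. Other genes were given by range and counts, and those printed beyond this rule were chosen after their values were seen. Alternatives covered the pseudocount, filter, scaling, each library left out, the replicate number as a block, the prior variance, and library weights. Gene positions are from GENCODE M21 on GRCm38, and promoter windows are from RefSeq on GRCm38.p6. Python 3.11.15 with pandas 2.3.3 was used for other steps. The result of a marker list is not reported here.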

Additional observations from a re-analysis of the deposited data

How the results depend on the processing

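The ratio of the summed level stayed between 1.22 and 1.77 in every setting run. The 6 genes called higher became 11 with library weights, 13 with quantile normalization, 10 with a common 75th percentile, 12 without the 5 LOC features, 3 with a common Treg marker sum (a scaling chosen after seeing the data), and 2 to 20 with each library left out in turn, the highest without CML replicate 2. Without naive replicate 1 or 2 there were 2, and 261 and 249 of all genes tested were called higher. Without CML replicate 3 or naive replicate 3 there were 3, and 330 and 251 of all genes tested were called higher. Over all genes tested, the genes called higher (363) became 460 with library weights, 624 with quantile normalization, and 451 with a common 75th percentile. They became 579 without the LOC features, 192 with a common Treg marker sum, and 677 without CML replicate 2. In these settings, the counts of all genes and of the mitosis genes moved the same way. Without CML replicate 1 they moved apart, with 455 of all genes and 4 of the mitosis genes called higher. With the replicate number as a block they also moved apart, with 325 of all genes and 8 of the mitosis genes. The further mitosis genes called higher (6) became 10 with library weights, 15 with quantile normalization, 11 with a common 75th percentile, and 12 without the LOC features. They became 4 with a common Treg marker sum, and 3 to 15 with a library left out (3 without naive replicate 2, 15 without CML replicate 2). The 8 genes higher in every CML library became 13 with quantile normalization and 13 without the LOC features. They became 12 with a common 75th percentile and 6 with a common Treg marker sum. With a library left out they became 8 to 28, the highest without CML replicate 2. The share of all genes tested rose as well without CML replicate 2, from 4.84% to 13.9%. That share was not counted in the other settings. The cause of these differences between settings was not tested. Of the 7 called genes, Top2a lost the call without a variance trend, Cenpe, Prc1, and Top2a lost it with a common Treg marker sum, and Cdc25b lost it without the LOC features. The calls without CML replicate 1 (3 of 7 kept), CML replicate 3 (3), and each naive replicate (3) rest on fewer libraries.

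Among all genes called, 30.5% were higher in CML Tregs, compared with 51.4% with quantile normalization, 48.7% without the LOC features, 46.4% without CML replicate 2, and 8.56% with a common Treg marker sum. The median of all genes was -0.18, and -0.01, -0.05, -0.03, and -0.40 in those settings, where the median of the mitosis genes was 0.73, 0.54, 0.89, and 0.22.

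The direction turned for genes with low or no reads in CML replicate 2 or with small changes. With library weights, log2 fold changes became 0.05 (Aurka), 0.12 (Aurkb), 0.52 (Birc5), and 0.38 (Ect2). With a pseudocount of 0.001 they became 0.02 (Aurka), -2.77 (Bub1), -1.26 (Cks2), -0.21 (Kif20a), -2.68 (Kif2c), and -2.64 (Mad2l1), and with 0.1 they became 0.01 (Aurka), -0.61 (Bub1), -0.13 (Kif20a), -0.51 (Kif2c), and -0.44 (Mad2l1). Quantile normalization gave 0.30 (Aurka), 0.18 (Cks1b), and 0.18 (Ect2), the 75th percentile 0.03 (Aurka), and leaving out the LOC features 0.10 (Aurka) and 0.04 (Cks1b). A common Treg marker sum gave -0.10 (Bub1), -0.14 (Bub3), -0.09 (Kif20a), and -0.18 (Racgap1). With a library left out, the range crossed 0 for Anln (-1.42 to 0.10), Aurka (-0.41 to 0.40), Aurkb (-1.18 to 0.41), Birc5 (-1.49 to 1.21), Bub1 (-0.47 to 1.05), Bub3 (-0.08 to 0.22), Ccnb2 (-0.07 to 0.83), Cdc20 (-0.46 to 0.01), Cdca8 (-0.76 to 0.05), Cks1b (-1.16 to 0.84), Cks2 (-0.03 to 2.03), Ect2 (-0.76 to 0.63), Hmmr (-0.13 to 0.67), Kif20a (-0.59 to 1.33), Kif2c (-0.34 to 1.38), Mad2l1 (-0.35 to 2.17), Racgap1 (-0.25 to 0.43), Tpx2 (-0.33 to 0.89), and Ttk (-0.13 to 0.74).

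With the replicate number as a block, 8 of the mitosis genes and 5 of the further mitosis genes were called higher. Over all 13923 genes tested, 325 were called higher in this setting. With limma, 1 of all genes passed the adjusted p there, and 0 of the mitosis genes did. Deviations of same-numbered libraries had correlations of -0.00477, -0.00159, and -0.0192 over 13923 genes. Differently numbered libraries had -0.0419 to 0.0518. With 3 libraries a group, these values cannot show whether the numbers pair the mice, and the main test does not pair them. Depth limits CML replicate 2 most, where 24 of 42 genes had fewer than 10 reads.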

Other observations

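Genes of DNA replication, which act in S phase before the mitosis genes, mostly had positive fold changes as well. Of 27 genes (the MCM helicase, polymerases, and their loaders among them), 25 had a log2 fold change above 0, with a median of 0.48 compared with -0.18 for all genes tested. At an unadjusted p under 0.05 and a fold of at least 1.5, 6 were called higher (2.61% of the genes tested) and 1 lower (5.94%). With limma, 0 passed the adjusted p (smallest 0.282). The summed level was 727, 539, and 787 RPKM in CML Tregs, against 466, 477, and 494 in naive Tregs, and every CML library, CML replicate 2 included, was above every naive library.

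The microRNA feature Mir15b, which lies inside Smc4, had 0 RPKM in all CML libraries and 17.5, 57.0, and 46.6 RPKM in naive replicates 1, 2, and 3. Reads of the overlapping genes cannot be told apart in these tables.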
